A study of Mus musculus with 8 samples.

Results

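The 9 RNAs described here are long noncoding RNAs known for staying in the nucleus or for carrying small RNAs: Neat1, Malat1, Miat, Meg3, Rian, Mirg, Snhg11, Gas5 and Snhg1. They were taken by exact gene name from a deposited table of 43346 genes, and each name gave 1 entry. RNA was taken from cortex with hippocampus of 8 mice at an age of 1.5 months, 1 library per animal. Mice of the GFP group (n = 4) expressed green fluorescent protein alone. Mice of the GFP-GR100 group (n = 4) expressed the same protein fused to 100 glycine-arginine repeats, a model of poly(GR), which is a dipeptide repeat protein translated from the C9orf72 expansion of frontotemporal dementia and amyotrophic lateral sclerosis. The repeats were cloned into a pAAV-EGFP plasmid. The sources used here do not give its promoter, the viral serotype or the route of delivery. Each group held 2 females (libraries 1 and 2) and 2 males (libraries 3 and 4). The comparison asks how these RNAs differed between poly(GR) and control brains.

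Neat1 is the RNA scaffold of paraspeckles, nuclear bodies that assemble on its long form and hold proteins such as Nono, Sfpq and Tardbp. Malat1 lies in nuclear speckles with splicing factors, and Miat (also called Gomafu) in separate nuclear domains of neurons. Meg3, Rian and Mirg are transcribed from the maternal copy of the imprinted Dlk1-Dio3 domain, where Rian carries small nucleolar RNAs (snoRNAs) and Mirg carries microRNAs. Gas5 and Snhg1 are spliced hosts of snoRNAs whose exonic RNA is a known target of nonsense-mediated decay, and Snhg11 is a neuronal snoRNA host.

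The same table has 3 short entries within the first part of Neat1, which both its long and its short form contain. Their RNA is shown because their counts are given below beside those of the whole gene, of which they are no independent measurement. Each is written 5′ to 3′ on the minus strand of mm10 (GRCm38), all in lower case because no motif is marked.
Gm28006, chr19:5844916-5845037, bases 442 to 563 of Neat1: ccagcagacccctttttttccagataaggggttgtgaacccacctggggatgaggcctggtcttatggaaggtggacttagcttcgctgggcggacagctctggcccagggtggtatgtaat
Gm27505, chr19:5844638-5844747, bases 732 to 841: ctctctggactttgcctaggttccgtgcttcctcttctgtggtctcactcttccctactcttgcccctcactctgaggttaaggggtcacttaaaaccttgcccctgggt
Gm27533, chr19:5844286-5844437, bases 1042 to 1193: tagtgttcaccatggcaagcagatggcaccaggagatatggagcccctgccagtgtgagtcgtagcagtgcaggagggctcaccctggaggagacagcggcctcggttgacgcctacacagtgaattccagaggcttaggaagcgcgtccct

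Neat1 was the member with the widest separation between groups. Its level, in counts scaled by TMM to a common library total (CPM), was 53.4, 61.7, 53.0 and 41.0 in GFP 1 to 4. In GFP-GR100 1 to 4 it was 75.1, 85.6, 89.9 and 191. All 4 GFP-GR100 libraries lay above all 4 GFP libraries, and GFP-GR100 4 lay far above the other 3 of its group. The mean was 52.3 ± 8.52 CPM (SD, n = 4) in GFP and 110.4 ± 54.1 CPM (SD, n = 4) in GFP-GR100, a fitted fold of 2.04 (log2 fold change 1.03, SE 0.33). By edgeR's quasi-likelihood test with Benjamini-Hochberg adjustment over 20987 genes, this did not pass 0.05 (adjusted p = 0.231). Among all genes tested, 2.85% had a log2 fold change at least as large. Without GFP-GR100 4 the log2 fold change was smaller, at 0.67, and passed (adjusted p = 0.0118) with GFP-GR100 higher, as 1.95% of genes did in that fit. It also passed without both GFP 3 and GFP-GR100 4 (2.76% of genes) and with no filter on low counts (3.64% of genes). With no filter, edgeR gave Neat1 the spread shared by all genes, a variance of 0.823 against 8.55 with the filter. These were the 3 of 19 alternative settings in which Neat1 passed, and in the other 16 it did not.

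Of the 9 members, 0 passed the adjusted threshold, where 2.52% of all genes tested passed in either direction, 2.19% with GFP-GR100 higher and 0.324% with it lower. DESeq2 and limma-voom also called 0, where 3.45% and 2.32% of genes rose. At an unadjusted p under 0.05 there were 2, Neat1 and Gas5, against 15.6% of all genes in either direction and 8.23% with GFP-GR100 higher, and DESeq2 gave 2 as well, against 15.3% of all genes. The log2 fold change was above 0 in 8 of the 9, with a median of 0.23, against 45.4% of all genes and a median of -0.024. The groups did not overlap for 1 member, Neat1, against 8.06% of all genes in either direction, 5.03% with GFP-GR100 higher and 3.03% with it lower. Library GFP-GR100 4 was the highest of its group for 8 members, Snhg1 being the exception. Together the 9 RNAs took 0.561%, 0.662%, 0.420% and 0.415% of counts in GFP 1 to 4, against 0.524%, 0.615%, 0.468% and 0.847% in GFP-GR100 1 to 4. The means of this share were 0.515% ± 0.120 (SD, n = 4) and 0.614% ± 0.167 (SD, n = 4), and the groups overlapped.

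**Figure D1:**
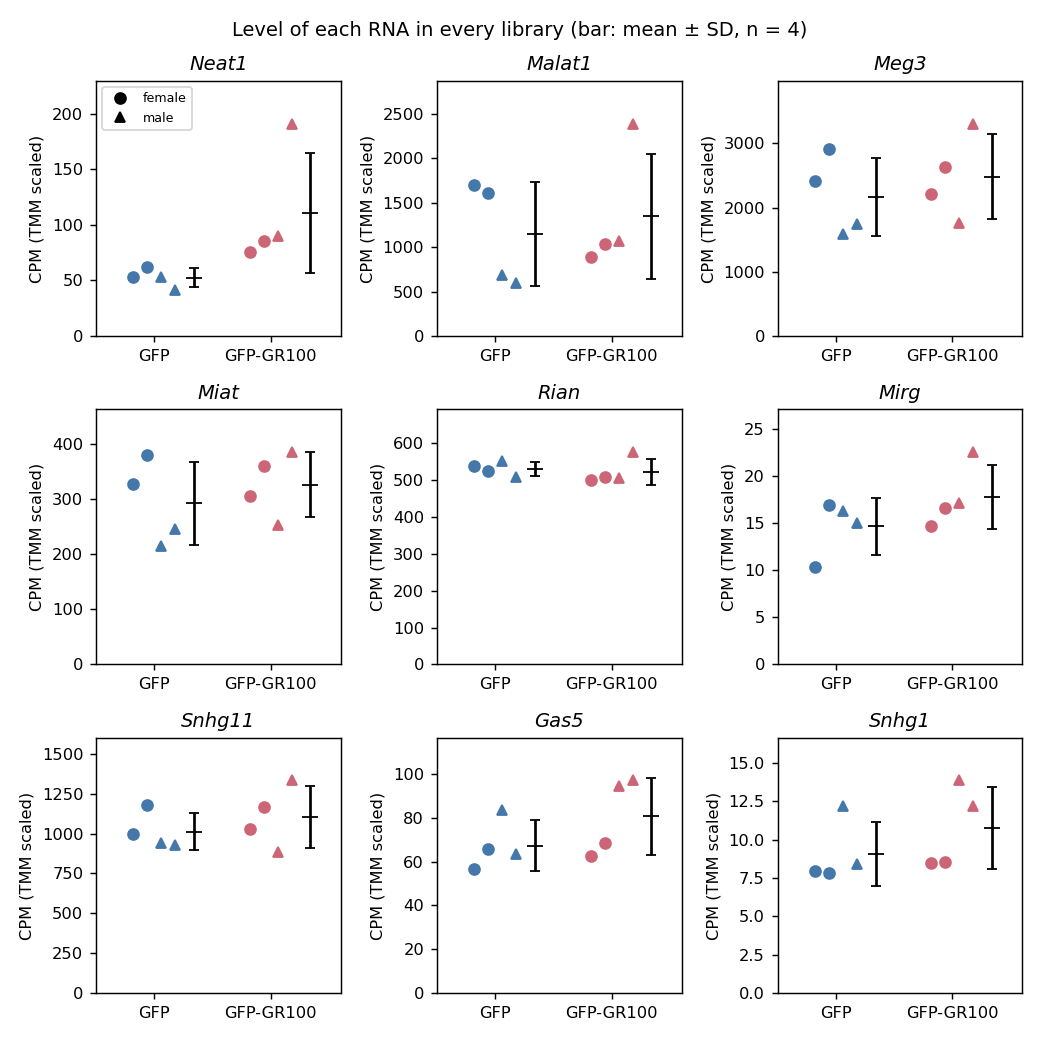
Level in TMM-scaled CPM (y axis, from 0) of each of the 9 RNAs in every library, by group (x axis), where circles are females, triangles are males and the bar is the mean ± SD (n = 4). Neat1 alone has no overlap between groups, with GFP at 41.0 to 61.7 and GFP-GR100 at 75.1 to 191 CPM, and GFP-GR100 4 stands highest in most panels.

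Total counts were 65880460 to 89113010 per library, so that 3 counts equal 0.0337 to 0.0455 CPM, and none of the members was near that floor. The smallest count of any member was 481, for Snhg1 in GFP 1, with a 95% Wilson interval of ± 9.34% that covers counting error only. For Neat1 the smallest was 3237 counts (± 3.50%). Neuron markers were present in every library, and the 9 microglia markers summed to 379 to 538 CPM in GFP and 670 to 753 CPM in GFP-GR100, 7 of the 9 having risen. The 5 choroid plexus markers summed to 126 to 358 CPM in GFP and 31.0 to 86.2 CPM in GFP-GR100, and 1 of them, Folr1, fell. All 8 oligodendrocyte markers were lower in the fit (median log2 fold change -0.28), with 0 called, and Gpr17, a marker of oligodendrocyte precursors, fell. GFP-GR100 4 had the lowest sum over 10 excitatory neuron markers, 4140.0 CPM against 4998 to 6187 CPM in the other 3 of its group. In GFP this sum was 5224 to 5718 CPM. In the same library the oligodendrocyte markers summed to 8168 CPM, against 5250.0 to 5735 CPM in the other 3 and 6328 to 8320 CPM in GFP. There 5 endothelial markers summed to 201 CPM, against 137 to 148 CPM in the other 3 and 133 to 159 CPM in GFP. Fewer cells of a type and less RNA per cell cannot be told apart in such bulk samples. Brain weights given in the labels were 111.4 to 126.6 mg in GFP and 71.9 to 85.1 mg in GFP-GR100, and GFP-GR100 4 was the heaviest of its group. The share of counts at 3 loci carrying ribosomal RNA sequence (Yam1, AY036118 and Lars2) was 6.74% to 11.4% in GFP females and GFP-GR100 males and 2.76% to 3.798% in GFP males and GFP-GR100 females. The part of these differences in the results on the 9 RNAs was not tested beyond the values given with them.

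The short entries inside Neat1 gave group differences close to that of the whole gene. Gm28006 had 3.36, 4.19, 2.73 and 2.58 CPM in GFP 1 to 4, against 4.52, 6.62, 5.40 and 9.92 CPM in GFP-GR100 1 to 4. Its log2 fold change was 1.04 (SE 0.26, adjusted p = 0.0777). Gm27505 had a log2 fold change of 0.94 (SE 0.27, adjusted p = 0.131) and Gm27533 one of 1.076 (SE 0.27, adjusted p = 0.0940). In none of the 3 did the groups overlap, GFP-GR100 being higher, as in 5.03% of all genes tested. None passed the threshold. Their summed counts equalled 17.6% to 21.4% of the Neat1 count in GFP and 18.2% to 22.5% in GFP-GR100. Per base, the signal over their 384 bases was 9.50 to 12.2 times that of the whole gene, which the authors' table gives a length of 20771 bases at chr19:5824708-5845478. Reads that reach past the ends of such short entries may be counted there in full, which would raise this value and was not tested. GENCODE M21 has a long single-exon transcript over that whole span and a short one at chr19:5842307-5845476 that also holds the 3 entries. The long and the short form cannot be told apart from a count per gene, and reads in the short entries may have been counted in Neat1 as well, so these are no independent measurement.

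No gene of a paraspeckle protein passed the test. Of 26 listed, 0 rose and 0 fell. Since only 2.52% of all genes passed, 0 in so short a list says little about the set. An unadjusted p under 0.05 was seen for 3, against 15.6% of all genes, 1 with GFP-GR100 higher and 2 with it lower. The log2 fold change was above 0 in 8 of the 26, against 45.4% of all genes, with a median of -0.048. The RNAs of proteins that start paraspeckle assembly differed by less than the SD of the GFP group. Nono had 116.4 ± 7.82 CPM in GFP and 113.4 ± 4.41 CPM in GFP-GR100, and Sfpq 144.5 ± 18.2 and 132.03 ± 8.01 CPM (SD, n = 4 each). For Sfpq the difference was larger than the SD of the GFP-GR100 group. Tardbp, which encodes TDP-43, had 159.7 ± 12.5 CPM in GFP and 153.01 ± 12.04 CPM in GFP-GR100 (log2 fold change -0.059, adjusted p = 0.775). The smallest p of the list belonged to Rbm3, a cold-inducible RNA-binding protein, at 58.8 ± 12.8 and 93.2 ± 23.6 CPM (log2 fold change 0.69, SE 0.20, adjusted p = 0.155).

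Malat1, the neighbour of Neat1 on chromosome 19 (chr19:5795690-5802672, minus strand), overlapped widely between groups. It had 1696, 1615, 685 and 598 CPM in GFP 1 to 4, against 889.7, 1039.9, 1065 and 2393 CPM in GFP-GR100 1 to 4. Both GFP females were thus far above both GFP males, and GFP-GR100 4 was above every other library. The means were 1149 ± 587 and 1347 ± 702 CPM (SD, n = 4 each), with a log2 fold change of 0.33 (SE 0.57, adjusted p = 0.81). In females both GFP-GR100 values lay below both GFP values (log2 fold change -0.78, SE 0.37), and in males both lay above (1.43, SE 0.37). The difference between the sexes was 2.21 on the log2 scale (SE 0.53) and did not pass after adjustment over all genes (adjusted p = 0.154), a test that 0.0524% of genes passed. Without GFP-GR100 4 the group difference turned to -0.14. Entries that overlap Malat1 held counts equal to 17.8% to 18.5% of its own in each library, the largest of them on the opposite strand.

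Malat1 was higher where the share of counts at the ribosomal RNA loci was higher. The 4 libraries with the higher share also had the 4 highest Malat1 values, 1065 to 2393 CPM, against 598 to 1039.9 CPM in the 4 with the lower share. Since the libraries of higher share are the GFP females and the GFP-GR100 males, the sex-specific difference and the share cannot be told apart. Within the 4 libraries of higher share, a split chosen after seeing the data, the mean log2 difference in Malat1 was -0.052, and within the 4 of lower share it was 0.59. In each set the GFP and GFP-GR100 libraries are of opposite sex, so group and sex cannot be told apart there. For Neat1 the mean log2 differences were 1.19 at the higher share and 0.78 at the lower. That its groups stay apart in both sets follows from the 8 libraries together and is no further observation.

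The count ratio of Neat1 to Malat1 within each library does not depend on library scaling. It was 3.15, 3.82, 7.74 and 6.85 Neat1 counts per 100 Malat1 counts in GFP 1 to 4. In GFP-GR100 it was 8.44, 8.23, 8.44 and 7.98. The GFP-GR100 libraries kept within a narrow range although Neat1 itself spanned 75.1 to 191 CPM there, and all lay above the GFP libraries. The mean log2 ratio was -4.32 ± 0.63 in GFP and -3.60 ± 0.038 in GFP-GR100 (SD, n = 4 each), a difference of 0.72. A two-sided exact permutation test gave p = 0.0286, which is the lowest value that 70 assignments of the 8 animals allow, and 0.114 after adjustment over the 4 ratios computed. That test ignored sex, although the GFP females had lower ratios than the GFP males. Permuted within sex, it gave an adjusted p of 0.222. Its unadjusted p was the lowest that the fewer assignments within sex allow, and that value is itself above the adjusted threshold. The within-sex test therefore could not have passed, and its higher p does not show a weaker difference once sex is allowed for. With 1 GFP-GR100 library left out the adjusted p was 0.514 to 0.686, and with 1 GFP library left out it was 0.114. The difference was smaller between males, where the GFP ratios were 6.85 and 7.74, than between females, a contrast that was not tested on its own. In females the log2 fold change was 0.48 for Neat1 and -0.78 for Malat1, and in males it was 1.58 and 1.43. The ratio thus carries the Malat1 difference between the sexes, which cannot be told apart from the ribosomal RNA share.

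**Figure D2:**
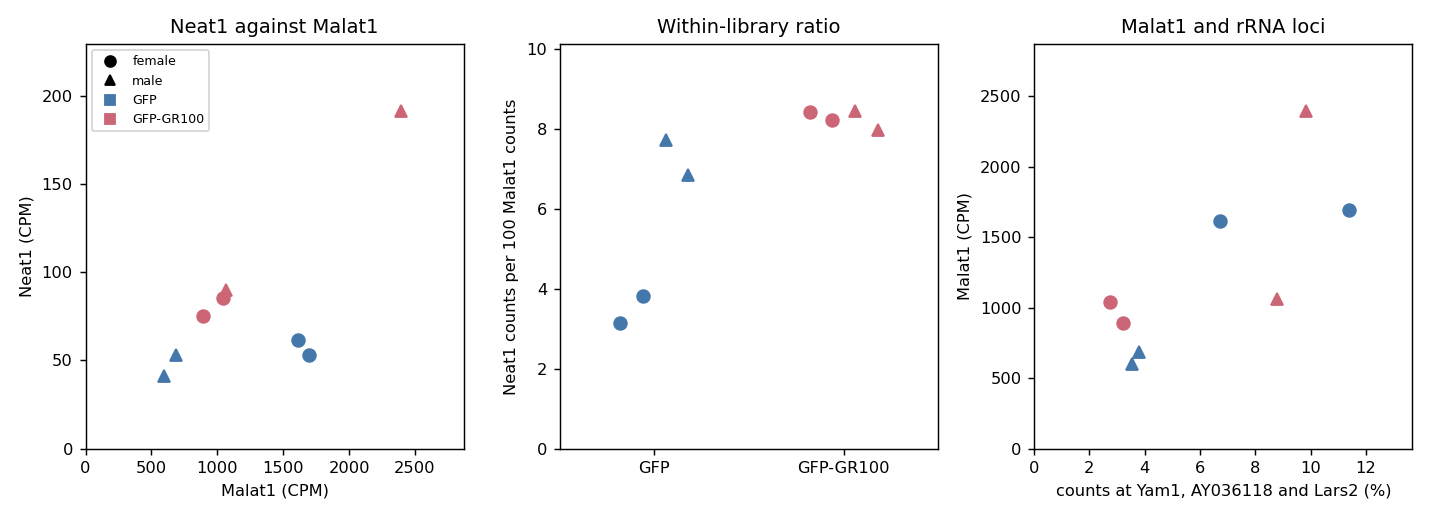
Left, Neat1 against Malat1 in CPM; middle, Neat1 counts per 100 Malat1 counts by group; right, Malat1 in CPM against the percent of counts at the 3 ribosomal RNA loci; 1 point per library, colour for group and shape for sex. The 4 GFP-GR100 ratios lie between 7.98 and 8.44, above the GFP ratios of 3.15 to 7.74, and Malat1 is highest where the ribosomal RNA share is high.

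Of 19 listed proteins of nuclear speckles, the bodies that hold Malat1, 0 rose and 0 fell, against 2.52% of all genes called. Their median log2 fold change was 0.10. Of these, 2 had an unadjusted p under 0.05, both with GFP-GR100 higher, against 8.23% of all genes. Clk4, a kinase that phosphorylates SR splicing factors, had 40.1 ± 5.13 CPM in GFP and 51.9 ± 6.95 CPM in GFP-GR100 (log2 fold change 0.37, adjusted p = 0.143). Srsf5, an SR splicing factor, had 132.04 ± 11.4 and 161 ± 14.9 CPM (log2 fold change 0.29, adjusted p = 0.174).

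Miat (chr5:112213228-112229395) had 328, 380.2, 216 and 247 CPM in GFP 1 to 4, against 306, 362, 253 and 386 CPM in GFP-GR100 1 to 4. Females were above males in the GFP group, and the groups overlapped. The log2 fold change was 0.19 (SE 0.16, adjusted p = 0.57), at -0.084 in females and 0.47 in males. Without GFP-GR100 4 it was 0.0018, and without GFP-GR100 1 it was 0.32. The difference between sexes of 0.55 did not pass (adjusted p = 0.329). Over the 8 libraries, Miat followed Meg3 more closely than any other member (Pearson r = 0.98 across libraries that share their depth and scaling, a description).

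Meg3, the most counted member, begins the maternally expressed cluster (chr12:109541001-109571726). It had 2406, 2904, 1595.5 and 1751 CPM in GFP 1 to 4, against 2207, 2637.5, 1754 and 3308 CPM in GFP-GR100 1 to 4. In the GFP group females were above males, GFP-GR100 4 was the highest of all libraries, and the groups overlapped. The log2 fold change was 0.23 (SE 0.22, adjusted p = 0.632) and turned to -0.052 without GFP-GR100 4. An entry on the opposite strand inside Meg3, Gm26906, held counts equal to 4.17% of the Meg3 counts, and since no source used here says whether counting used strand, the pair cannot be told apart.

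Rian (chr12:109603940-109661716), which lies downstream of Meg3 in the same cluster, was the steadiest member. It had 539, 524, 552 and 507 CPM in GFP 1 to 4, against 499, 507, 507 and 576 CPM in GFP-GR100 1 to 4. All libraries but GFP-GR100 4 lay between 499 and 552 CPM. The means were 531 ± 19.4 and 522 ± 36.0 CPM (SD, n = 4 each), and the log2 fold change of -0.024 (SE 0.085, adjusted p = 0.911) changed sign under total-count scaling, where it was 0.044. The log2 ratio of Rian to Meg3 counts differed between groups by -0.22 (two-sided exact permutation p = 0.429).

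Mirg (chr12:109729764-109749460), the host of the last microRNA group of the cluster, was the lowest of the 3. It had 10.4, 16.99, 16.4 and 15.03 CPM in GFP 1 to 4, against 14.7, 16.6, 17.2 and 22.6 CPM in GFP-GR100 1 to 4. GFP 1 was low and GFP-GR100 4 high, with the other 6 libraries close together. The log2 fold change was 0.27 (SE 0.15, adjusted p = 0.395). Leaving out GFP 1 gave 0.16, leaving out GFP-GR100 4 gave 0.17 and leaving out GFP 2 gave 0.44. The ratio of Mirg to Meg3 differed by 0.087 on the log2 scale (two-sided exact permutation p = 0.771). Within the span of Mirg lie 14 microRNA entries whose summed counts equalled 18.2% to 28.8% of its own count.

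Of 7 other listed genes of the Dlk1-Dio3 domain, 0 rose and 0 fell, against 2.52% of all genes called, with a median log2 fold change of 0.18. Dio3, a paternally expressed enzyme that inactivates thyroid hormone, had 3.67 ± 1.13 CPM in GFP and 2.40 ± 0.52 CPM in GFP-GR100 (log2 fold change -0.57, SE 0.22, adjusted p = 0.246). Dlk1, a paternally expressed ligand of the Notch family, had 9.35 to 14.2 CPM in GFP and 11.4, 12.1, 10.4 and 33.9 CPM in GFP-GR100 1 to 4 (log2 fold change 0.38, adjusted p = 0.638). Of the GFP-GR100 libraries, 3 lay within the GFP range and GFP-GR100 4 far above it. Of the 7, 5 had a log2 fold change above 0, against 45.4% of all genes.

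Snhg11 (chr2:158375638-158386145), which GENCODE M21 lists as protein coding, had 996, 1180.3, 941 and 927 CPM in GFP 1 to 4. In GFP-GR100 1 to 4 it had 1027, 1169, 882 and 1333 CPM. The lowest and the highest library were both GFP-GR100 males. Its log2 fold change was 0.13 (SE 0.13, adjusted p = 0.638), and without GFP-GR100 4 it was -0.025.

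Gas5 (chr1:161034422-161038539) had 56.7, 65.8, 83.7 and 63.2 CPM in GFP 1 to 4, against 62.7, 68.3, 94.6 and 97.0 CPM in GFP-GR100 1 to 4. Both GFP-GR100 males lay above every GFP library, while the females overlapped with GFP. The means were 67.3 ± 11.5 and 80.7 ± 17.7 CPM (SD, n = 4 each), with a log2 fold change of 0.24 (SE 0.11, adjusted p = 0.299). The difference between the sexes was 0.29 (adjusted p = 0.472). The 9 snoRNA entries inside Gas5 held counts equal to 9.46% to 11.5% of its own, which may include shared reads. Gas5 also shares 428 bases with Zbtb37 on the other strand, and reads there cannot be assigned without the strand setting.

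Snhg1 (chr19:8723496-8726442) followed Gas5 at a lower level. It had 7.93, 7.82, 12.2 and 8.44 CPM in GFP 1 to 4, against 8.51, 8.55, 13.9 and 12.2 CPM in GFP-GR100 1 to 4. GFP 3 and both GFP-GR100 males were high and the other 5 libraries were low. The log2 fold change was 0.23 (SE 0.13, adjusted p = 0.397). Each library held between 682 and 841 Gas5 counts per 100 Snhg1 counts, and the log2 ratio differed between groups by 0.012 (two-sided exact permutation p = 0.886). Within the 4 libraries of higher ribosomal RNA share the mean log2 difference was 0.65 for Gas5 and 0.72 for Snhg1, and within the 4 of lower share it was -0.15 and -0.25. That split was chosen after seeing the data. In each set the GFP and GFP-GR100 libraries are of opposite sex, so group and sex cannot be told apart there.

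The starts of these 2 hosts are shown because the pair moved together. They are the first 50 bases after the RefSeq start sites on GRCm38.p6, 5′ to 3′, with the opening run of C and T in capitals. A start at C followed by at least 4 C or T is the letter pattern of the terminal oligopyrimidine tract, a feature of RNAs whose translation follows growth signals.
Gas5, second listed start: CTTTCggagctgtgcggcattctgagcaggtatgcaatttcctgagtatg
Snhg1: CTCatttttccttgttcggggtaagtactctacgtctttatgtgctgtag
That pattern was found in Gas5 and Miat and in 2.51% of 32851 promoter entries, and the start of Snhg1 does not meet it. It was searched after the data were seen. Promoter entries covered 8 of the 9 members. The letters TGACGTCA, the palindrome of the cAMP response element, were found on either strand in the 300-base entries of Gas5 and Meg3 and in 1.79% of all entries. These are matches of letters, not measured sites.

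Other snoRNA hosts and decay factors gave no called gene. Since only 2.52% of all genes were called, 0 in lists this short says little about them. Of 14 tested hosts other than the members, 0 rose and 0 fell, with a median log2 fold change of 0.088. An unadjusted p under 0.05 with GFP-GR100 higher was seen for 4 of them, against 8.23% of all genes. Snhg17, listed as 9430008C03Rik, had 8.90 ± 0.56 CPM in GFP and 11.8 ± 1.30 CPM in GFP-GR100 (log2 fold change 0.41, SE 0.11, adjusted p = 0.0811). Snhg12 had 12.2 ± 2.44 and 15.04 ± 2.72 CPM (log2 fold change 0.30, adjusted p = 0.213). Of 15 factors of nonsense-mediated decay, the pathway that removes spliced Gas5 and Snhg1 RNA, 0 rose and 0 fell, with a median of -0.028. An unadjusted p under 0.05 was seen for 0 of them, against 15.6% of all genes. Of 15 tested long noncoding RNAs outside the 9, 0 rose and 0 fell, with a median of 0.27 and 1 at an unadjusted p under 0.05. That one was Jpx, an RNA of the X-inactivation centre, with 4.41 ± 0.66 CPM in GFP and 5.62 ± 0.47 CPM in GFP-GR100 (log2 fold change 0.35, adjusted p = 0.218).

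Within each sex, 2 libraries stood against 2. The fitted log2 fold change was larger in males than in females for all 9 members in the full fit, against 53.5% of all genes, and GFP-GR100 4, a male, was the highest library of its group for 8 of them. In males 4 members had an unadjusted p under 0.05, against 27% of all genes, and 0 passed adjustment, against 9.33%, with Neat1 (1.58, SE 0.37, adjusted p = 0.0614), Malat1 (adjusted p = 0.0769) and Gas5 (0.38, adjusted p = 0.0871) nearest. In females 0 passed at either level, against 9.42% unadjusted and 0.881% adjusted, and Neat1 had 0.48 (SE 0.36, adjusted p = 0.726). The difference between sexes for Neat1 was 1.097 (adjusted p = 0.368). Over the members, 1 such difference had an unadjusted p under 0.05, that of Malat1, against 16.4% of all genes. The ribosomal RNA share was high in GFP females and GFP-GR100 males and low in the other libraries. For every member the difference between sexes therefore cannot be told apart from that share.

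**Figure D3:**
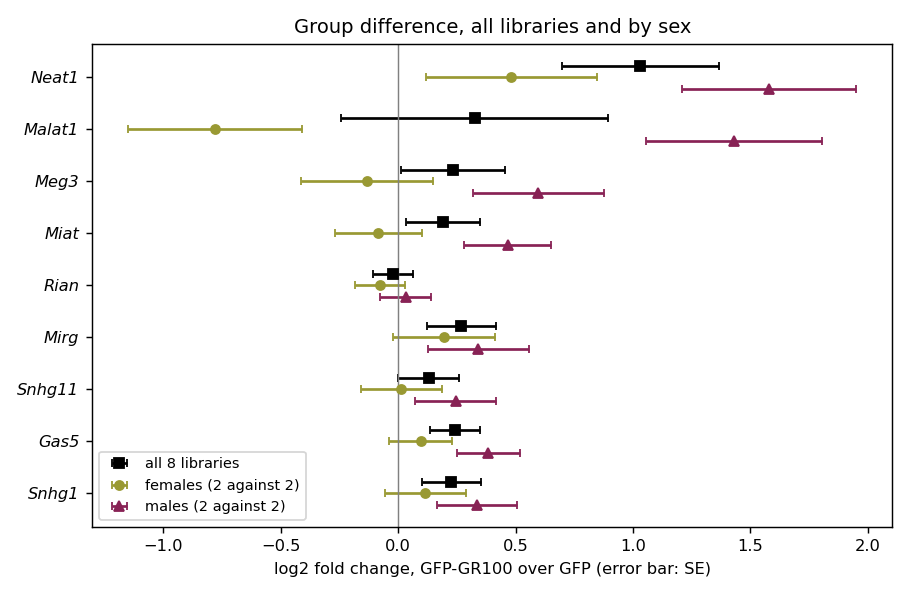
Group difference, GFP-GR100 over GFP on the log2 scale (x axis, error bars are SE), for each RNA, in all 8 libraries (squares), females (circles) and males (triangles). Values for males lie to the right of those for females in every row, with Malat1 at -0.78 in females and 1.43 in males. The difference between sexes cannot be told apart from the ribosomal RNA share.

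**Figure D4:**
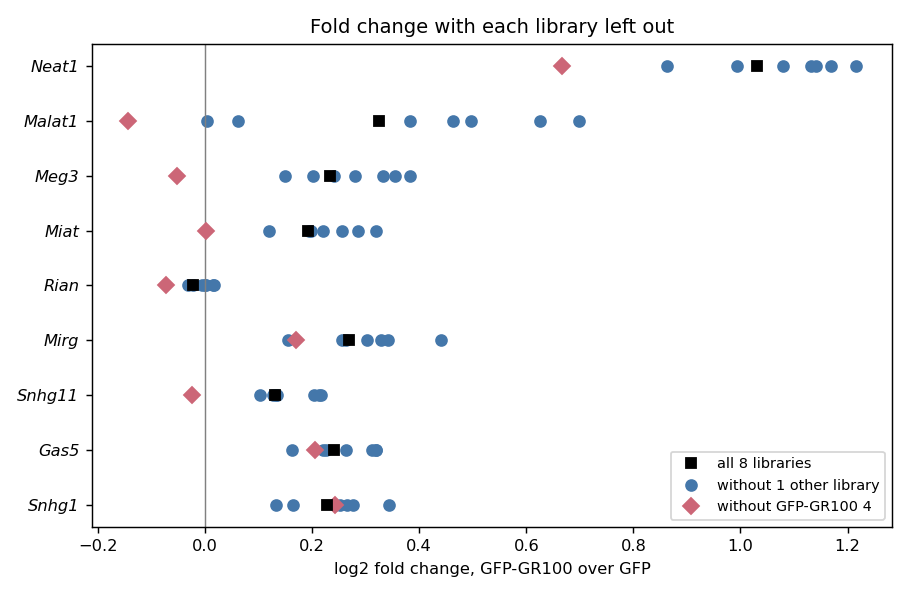
Group difference, GFP-GR100 over GFP on the log2 scale (x axis), for each RNA with all 8 libraries (black squares), without GFP-GR100 4 (red diamonds) and without each other library (blue circles). Neat1 stays between 0.67 and 1.22, while Malat1, Meg3 and Snhg11 fall below 0 without GFP-GR100 4.

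Levels were compared between the RNAs per length, in the authors' RPKM. The mean over 8 libraries was 178 for Malat1, 128 for Meg3 and 124 for Snhg11. Malat1 was above Meg3 in 7 of 8 libraries, and Meg3 above Snhg11 in only 5, so those 2 neighbours in the order were not separated. Miat at 33.3 and Rian at 30.1 RPKM were likewise in this order in 5 of 8 libraries. Gas5 followed at 19.7 RPKM in all 8. Neat1 at 3.94 and Snhg1 at 3.38 RPKM were in this order in 4 of 8 libraries, and Mirg was last at 2.24. Malat1, Meg3 and Snhg11 were above 98.5% to 99.1% of the tested genes, Neat1 was above 51.2%, Snhg1 above 47.9% and Mirg above 39.9%. The place of Neat1 depends on the length used: over the 384 bases of its 3 short entries the level was 22.8 to 92.3 RPKM, against 1.97 to 9.36 RPKM over the full listed length. The value over the short entries may be raised by reads that reach past their ends, so it does not place Neat1 among the other members. Per listed length, 6 of the 9 were above at least 85.2% of the tested genes, and since the RNA was total RNA of whole tissue, the place of these RNAs in the cell was not measured.

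**Figure D5:**
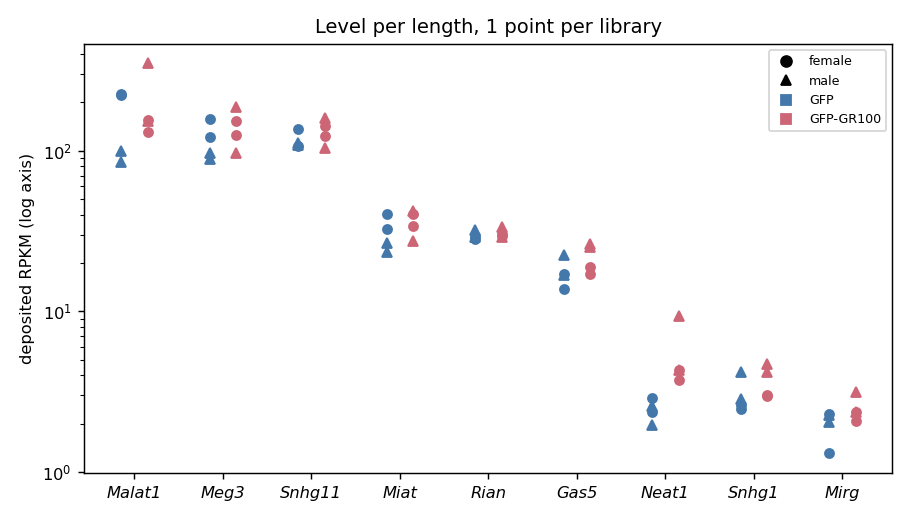
Deposited RPKM (y axis, log scale) of each RNA in every library, ordered by the mean over 8 libraries, with colour for group and shape for sex. Malat1, Meg3 and Snhg11 form the top at means of 178, 128 and 124, and Neat1, Snhg1 and Mirg the bottom at 3.94, 3.38 and 2.24, where Neat1 is divided by its full length of 20771 bases.

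The genes whose levels ran most like each member over the 8 libraries were sought among 13784 genes by Pearson's r of log2 CPM, as a description. For Neat1 they were Arhgap6 and Cc2d1b (r = 0.98 each), and for Malat1 Arhgap29 (0.98) and Zdhhc20 (0.97). Meg3 and Miat had each other among their nearest 2. Rian had lower values, 0.95 for both Prr5l and Pde8a. Snhg1 was nearest to Gtf2a2 (0.99), a general transcription factor subunit, and Rps4x (0.98), a protein of the small ribosomal subunit. None of these genes passed the test between groups, with adjusted p from edgeR of 0.177 for Cc2d1b and 0.529 for Arhgap6, and all points share library depth and scaling.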

How the data were processed

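The authors deposited 1 table of whole-number counts per gene and RPKM per gene for 8 libraries, RPKM being per kilobase of the gene length they list. Reads were aligned with TopHat2 version 2.1.0 to mm10, and CASAVA, DESeq2 and R version 3.4.1 are also named, per the submitters' processing notes. Libraries were paired-end and made with a stranded total RNA kit, per the labels' protocols. The counter is not given in the sources used here, nor are the annotation release and whether strand was used. Of the gene identifiers, 98.0% were in GENCODE M21, on the same build.

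The 9 members and all gene lists were chosen with earlier results of these data known. Counts were analysed with edgeR version 4.0.16 (filterByExpr, minimum count 10, minimum total 15, 20987 genes kept of 32096 with a count; TMM; robust quasi-likelihood test; model of sex and group) and adjusted by the Benjamini-Hochberg method over all genes at 0.05. Differences between sexes came from a model with their product. Each ratio was tested by a two-sided exact permutation test over animals. Each library is 1 animal, and replicate numbers follow accession order. A gene was named if it was a member, had the smallest p of its list, or was among the 2 most like a member over libraries with at least 1 mean CPM; Nono, Sfpq, Tardbp, Srsf5, Dlk1, Snhg12, Folr1 and Gm26906 were added after their values were seen. Alternatives were other scalings, other filters, DESeq2 version 1.42.0, limma version 3.58.1 (voom, and trend on log2(RPKM + 0.1) or log2(RPKM + 1)), other covariates and leaving out libraries. Sequences came from GRCm38 and RefSeq.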

Additional observations from a re-analysis of the deposited data

Results flagged for a closer look

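In 4 of 28 groups of 4 libraries examined, 1 library lay far from the rest, by a gap of more than 0.83 of the group's range. For a single group chance gives about 1 in 20. The 28 reuse the same 8 libraries for measures that partly move together, so they are not independent and their count was not tested against chance. In GFP-GR100 this library was GFP-GR100 4, the highest, for Neat1 (gap of 0.872 of the range), Malat1 (0.884) and Rian (0.898). In GFP it was GFP 3, the highest for Snhg1 (0.860). For Malat1 the group difference went in opposite directions in females and males, by 2.21 on the log2 scale, with all 4 animals of each sex following the direction of that sex, and edgeR's adjusted p for this difference was 0.154. It cannot be told apart from the ribosomal RNA share.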

How the results depend on the processing

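No paired analysis was possible because replicate numbers only follow the order of accession and link no animals. The cause of the changes below was not tested unless stated. Genes that rose numbered 460, but 1168 with no filter, 724 with DESeq2 and 304 to 514 with a library left out. Genes that fell numbered 68, but 44 with total counts, 361 with no filter, 36 at a mean of at least 1 CPM, 200.0 with DESeq2, 35 without the sex covariate, 226 with the ribosomal RNA share as covariate, 32 and 30.0 on log2(RPKM + 0.1) and log2(RPKM + 1), 115 without GFP 3 and GFP-GR100 4, and 19 to 77 with a library left out. Members called numbered 0, but 1, Neat1, with no filter and without GFP 3 and GFP-GR100 4, and 0 to 1 with a library left out.

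For Neat1 the log2 fold change was 1.04 with no filter (adjusted p = 9.6e-21), 0.73 without GFP 3 and GFP-GR100 4 (adjusted p = 0.0126) and 0.67 to 1.22 with a library left out (adjusted p = 0.0118 to 0.432). DESeq2 gave an adjusted p of 0.0622. With no filter edgeR gave Neat1, Malat1 and Gas5 the spread shared by all genes, with a variance of 0.823 for Neat1 against 8.55 with the filter. Malat1 was -0.22, Meg3 -0.057 and Miat -0.013 without GFP 3 and GFP-GR100 4. With a library left out, Malat1 was -0.14 to 0.70, Meg3 -0.052 to 0.38, Miat 0.0018 to 0.32, Mirg 0.16 to 0.44, Snhg1 0.13 to 0.34, Gas5 0.16 to 0.32, Rian -0.073 to 0.016 and Snhg11 -0.025 to 0.22. Rian was 0.044 with total counts, 0.016 over genes averaging at least 1 CPM, and 0.042 and then 0.041 on log2(RPKM + 0.1) and log2(RPKM + 1).

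The difference between sexes passed with no filter for Neat1 (1.06, adjusted p = 7.9e-07), Malat1 (2.16, adjusted p = 1.3e-28) and Meg3 (0.69, adjusted p = 0.00853), and DESeq2 gave 2.20 for Malat1 (adjusted p = 0.0128). With a library left out it was 0.45 to 1.54 for Neat1, 1.51 to 2.68 for Malat1, 0.20 to 1.11 for Meg3, 0.21 to 0.82 for Miat, -0.26 to 0.46 for Mirg, -0.10 to 0.50 for Snhg11 and -0.045 to 0.48 for Snhg1. Each of these fits leaves 1 animal in the sex and group that lost a library, so only the size is given. For Neat1, Malat1, Meg3 and Miat the highest value came without GFP-GR100 3, which left GFP-GR100 4 as the sole GFP-GR100 male. Their lowest value came without GFP-GR100 4. With a library left out, the log2 ratio differed by -0.14 to 0.28 for Mirg to Meg3 and -0.028 to 0.070 for Gas5 to Snhg1. Overlapping entries, unstated strand use and 4 animals a group limit all values, and none of the members was limited by depth.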
